A study of Saccharomyces cerevisiae with 24 samples.

Results

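The comparison set the RNA of budding yeast collected at 260 min of the yeast metabolic cycle against that collected at 240 min, the last 2 of 12 time points, 20 min apart. It covered the 5979 of 6562 genes in the deposited expression table whose mean deposited value over the 12 RNA-seq libraries was at least 500, which is 10 RPKM (reads scaled to gene length and library size) on the scale used here. All 24 samples of the series were of the CEN.PK strain of Saccharomyces cerevisiae, kept in minimal media, with 12 RNA-seq and 12 MNase-seq libraries, 1 of each at every time point, in a study of nucleosome positions and transcription through the cycle. MNase-seq, which maps nucleosomes, is not analysed here. RNA was extracted with hot phenol, and the labels gave neither a genotype beyond the strain, a treatment, nor whether all samples came from 1 culture.

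In the yeast metabolic cycle, cells of a dense culture fed slowly and continuously fall into step and alternate between phases of high and low oxygen consumption. Genes for building ribosomes, amino acids and nucleotides peak during the burst of oxygen consumption, genes for division and for building mitochondria follow, and genes for stress resistance, storage carbohydrate and the use of acetate and fatty acids fill the long phase of low consumption. The CEN.PK background is widely used for this cycle. The labels named the 2 samples only by time, so no phase is assigned to either and only the levels of their genes are described.

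The deposited values, headed RKPM, moved in steps that best matched reads of 50 bases counted base by base. On that reading, which no label states, they were divided by 50 to give the RPKM used here, and every RPKM and read number below depends on it. Each time point had 1 library, so no difference given here has a replicate check and none carries a test or a p-value. A gene is said to have risen or fallen where its level at 260 min was at least 2-fold above or below that at 240 min, a log2 change of at least 1 in log2(RPKM + 1), which understates the change of low genes. The steps in the low values placed the 12 libraries between 4355761 and 5960297 reads, with 5108311 reads at 260 min and 5113683 at 240 min, so that 1 read in a gene of 1 kilobase was worth 0.196 RPKM in both. Of the 6562 genes, 53 were listed at 0 at 260 min and 35 at 240 min. RPKM is a share of each library: a gene's level can fall because others rise, and in RNA from a whole culture fewer cells carrying a transcript and less of it per cell cannot be told apart.

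Between 240 and 260 min 2235 of the 5979 genes, 37.4%, passed 2-fold, 720 of them higher (12.0%) and 1515 lower (25.3%) at 260 min. At least 4-fold changes were seen in 939 genes (15.7%), of which 243 were higher (4.06%) and 696 lower (11.6%). The median change over all genes was -0.29. Scaling the libraries by the median ratio of their genes moved that median to 0.02, a shift of 0.31, and gave 1085 genes higher and 1158 lower. Quantile normalization gave 957 higher and 1057 lower, and a total without ribosomal protein genes gave 587 higher and 1856 lower. The balance of higher and lower genes thus moved with the scale, and the changes given below, which are on the scale of library totals, are to be read against the median of -0.29.

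**Figure D1:**
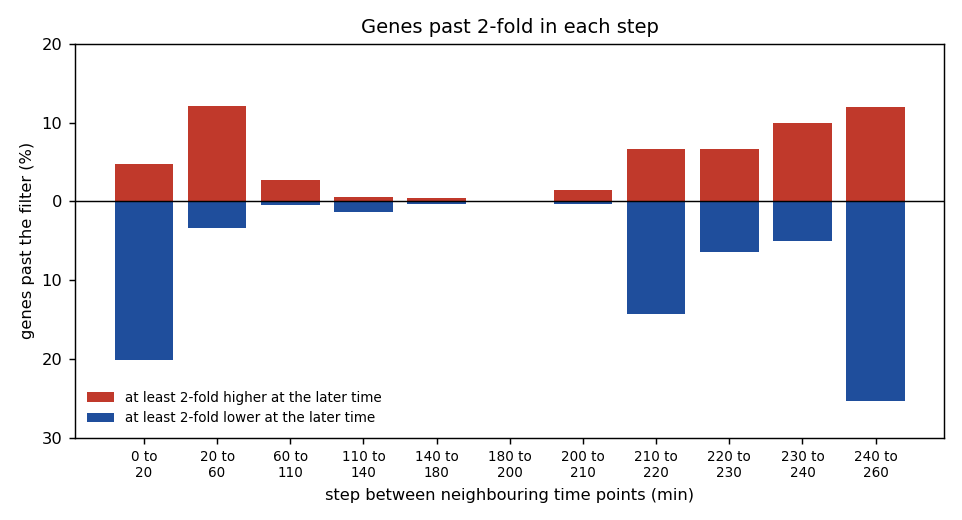
Share of the 5979 genes at least 2-fold higher (upward bars) or lower (downward bars) at the later time point of each of the 11 steps between neighbouring time points. The last step, 240 to 260 min, spans the most genes, at 12.0% higher and 25.3% lower; steps differ in length and neighbouring steps share a library.

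No other step between neighbouring time points held as many. The step of 0 to 20 min, also 20 min long, came next with 24.9% of genes past 2-fold, followed by 210 to 220 min with 20.9% and 20 to 60 min with 15.5%. The steps of 230 to 240 min and 220 to 230 min held 15.0% and 13.1%. From 60 to 210 min the 5 steps held 3.16%, 1.91%, 0.786%, 0.167% and 1.86%. The spread of changes over genes (SD) was 1.45 in the step of 240 to 260 min. Set against libraries further off in time, the 260 min library differed by 2-fold from that of 20 min in 419 genes (7.01%) and from that of 0 min in 1333 (22.3%).

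**Figure D2:**
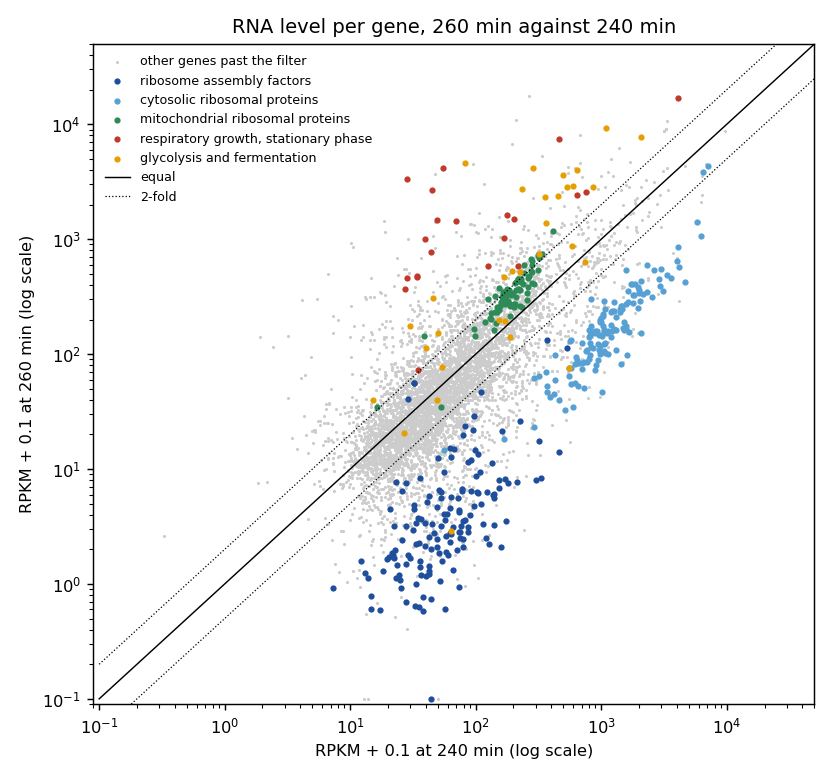
Level of each of the 5979 genes at 260 min (vertical) against 240 min (horizontal), both as RPKM + 0.1 on log axes, with 5 gene lists in colour and the 2-fold limits dotted. Of the ribosome assembly factors 148 of 150 and of the cytosolic ribosomal proteins 137 of 139 lie below the lower limit, with medians of 3.13 and 158 RPKM at 260 min against 55.9 and 1051 RPKM at 240 min, while the respiratory growth and stationary-phase genes lie above the upper one.

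The genes that fell had for the most part peaked before 240 min. Of the 1515, 639 were highest at 220 min (42.2%, against 17.9% of all genes) and 596 at 230 min (39.3%, against 16.4%). Another 206 were highest at 240 min itself (13.6%, near the 11.0% of all genes). At 260 min 852 reached their lowest level of the 12 libraries (56.2%, against 20.3%), which choosing genes on their 260 min level favours. For the 696 that fell at least 4-fold, the median level stood at 6.42% of the gene's maximum at 260 min, against 55.2% at 240 min; it was 100% at 220 min and 95.6% at 230 min. Of the 720 genes that rose, 394 were highest at 260 min (54.7%, against 16.7% of all genes), which choosing genes on their rise favours. Another 138 were highest at 20 min (19.2%, against 5.57%). Of the 720, 376 had been lowest at 230 min (52.2%, against 16.01% of all genes) and 264 at 220 min (36.7%, against 21.9%). Thus the step continued a decline already under way at 240 min for most falling genes, and a recovery from a low at 220 or 230 min for most rising ones. Shares of all signal, here and below, cover only the 5891 genes matched to a gene annotation, since the others lacked a gene length. The 1373 matched genes that fell held 9.66% at 260 min, against 43.7% at 240 min. The 656 matched genes that rose held 43.5% at 260 min, against 9.13% at 240 min. The direction of both shifts follows from choosing the genes on their change.

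**Figure D3:**
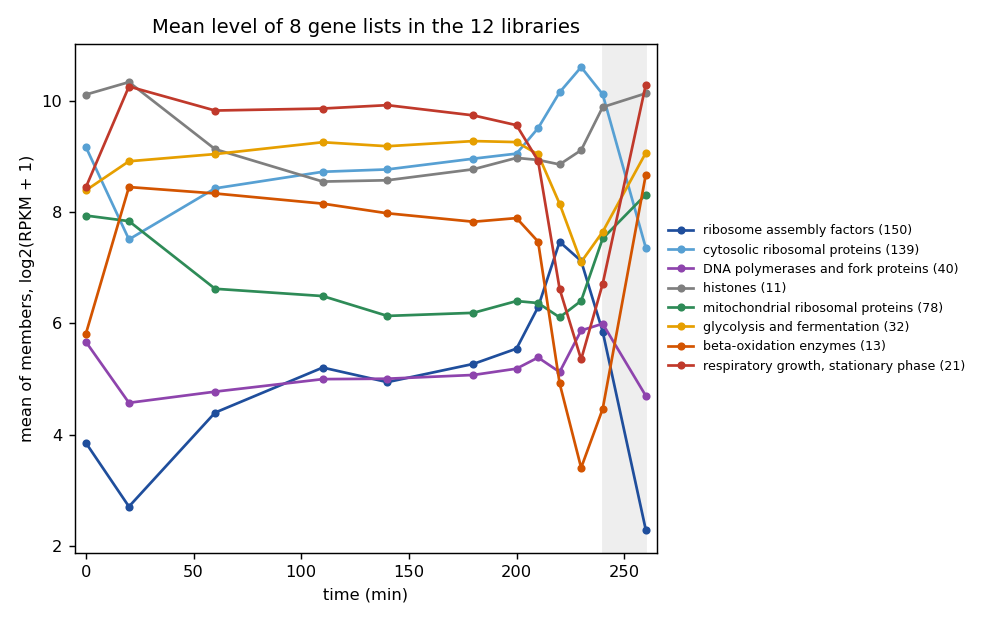
Mean of log2(RPKM + 1) over the members of 8 gene lists in each of the 12 libraries, with the step of 240 to 260 min shaded. The ribosome assembly factors stand at 2.29 at 260 min and 5.85 at 240 min, and the respiratory growth and stationary-phase genes at 10.29 at 260 min and 6.71 at 240 min.

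The 3 lists with the lowest medians of the 50 examined held the machinery that makes ribosomes. Of 150 ribosome assembly factors, proteins that process ribosomal RNA and fold it into subunits before leaving the finished particle, 148 fell, 137 of them at least 4-fold, with a median change of -3.66. Their summed share of all signal was 0.145% at 260 min, against 1.72% at 240 min. The 61 factors of the small subunit processome and 40S assembly had a median of -3.57 with 60 fallen, and the 77 factors of the 60S subunit a median of -3.67 with 76 fallen. The 2 that did not pass 2-fold were RIO1, a kinase of late 40S maturation, with 40.7 RPKM at 260 min against 28.95 RPKM at 240 min, and RSA1, a factor of snoRNP and 60S assembly, with 56.4 RPKM at 260 min against 31.99 RPKM at 240 min, both picked out after the values were seen. The change of RSA1, 0.80, came to 1.11 with median-ratio scaling, which is past 2-fold higher. In 124 of the 150 the level at 260 min was the lowest of all 12 libraries.

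BRX1 (YOL077C, chromosome XV, 185848 to 186723 in R64), needed for the large subunit, had 2.01 RPKM at 260 min against 158 RPKM at 240 min. Its other 10 libraries ranged between 3.81 and 352 RPKM, so 260 min was the lowest, and the level there rested on 8.99 estimated reads against 707 at 240 min. The ratio of the 2 levels was 78.6-fold, which over 20 min equals a halving every 3.18 min on average. CGR1 (YGL029W, chromosome VII, 440063 to 440425), a nucleolar factor of large subunit RNA processing, was listed at 0 at 260 min and had 44.00 RPKM at 240 min, an estimated 81.7 reads. MAK16 (YAL025C, chromosome I, 100225 to 101145), of the large subunit, had 0.849 RPKM at 260 min against 73.3 RPKM at 240 min, and UTP23 (YOR004W, chromosome XV, 333592 to 334356), a component of the small subunit processome, 0.506 RPKM at 260 min against 57.3 RPKM at 240 min. At 260 min these levels equal 3.99 reads for MAK16 and 1.98 for UTP23, so the folds of both rest on few reads.

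NOP13 (2.13 against 127 RPKM at 260 and 240 min), a nucleolar RNA-binding protein, DBP3 (2.43 against 121.04 RPKM), an RNA helicase of the large subunit, and NOP14 (0.642 against 44.1 RPKM), of the small subunit processome, fell by 5.36, 5.15 and 4.78 on the log2 scale. NSR1 (YGR159C, chromosome VII, 806412 to 807656), the yeast nucleolin, stood at 3.13 RPKM at 260 min against 140.2 RPKM at 240 min, having reached 1689 RPKM at 220 min. The median assembly factor had 3.13 RPKM at 260 min, against 55.9 RPKM at 240 min.

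Small nucleolar ribonucleoproteins (snoRNPs) modify and cut ribosomal RNA under the guidance of small RNAs, and their 13 core and box proteins had the lowest median of the 50 lists, -4.14, with 12 fallen; the other one was RSA1. NOP58 (YOR310C, chromosome XV, 896825 to 898360) had 3.41 RPKM at 260 min against 174 RPKM at 240 min, and its partner NOP56 (YLR197W, chromosome XII, 546097 to 547611) 8.29 RPKM at 260 min against 329 RPKM at 240 min; both are core proteins of the methylation-guiding particles. CBF5 (YLR175W, chromosome XII, 506134 to 507585), the pseudouridine synthase of the other class, had 7.99 RPKM at 260 min against 305 RPKM at 240 min. They fell by 5.32, 5.15 and 5.09 on the log2 scale.

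RNA polymerase I transcribes the large ribosomal RNA precursor. The 7 genes of its subunits all fell, with a median of -4.50, whereas 3 of 7 genes of its initiation factors fell, with a median of -0.97. RPA49 had 1.90 RPKM at 260 min against 83.4 RPKM at 240 min, RPA135, the second largest subunit, 1.67 RPKM at 260 min against 68.7 RPKM at 240 min, and RPA43, which contacts the initiation factor, 2.22 RPKM at 260 min against 77.6 RPKM at 240 min. RNA polymerase III, which makes transfer RNAs and 5S ribosomal RNA, showed the same arrangement: all 12 subunit genes fell, with a median of -2.78, and none of 8 genes of its initiation factors did, with a median of -0.38. RPC19 (4.36 against 92.9 RPKM at 260 and 240 min) and RPC40 (10.3 against 174 RPKM), subunits shared by both polymerases, and RPC11 (3.34 against 63.4 RPKM), of polymerase III alone, led the second list. The split of each list into subunits and initiation factors was made after the values were seen.

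Cytosolic ribosomal protein genes fell nearly as uniformly from a far higher level. Of 139 members, 137 fell, 132 of them at least 4-fold, and their summed share of all signal was 2.38% at 260 min, against 15.2% at 240 min. The median change was -2.72 for the 82 genes of the large subunit and -2.85 for the 57 of the small subunit, shallower than the -3.66 of the assembly factors. Their peak was also later, at 230 min for 132 of the 139 and at 220 min for 133 of the 150 assembly factors. The exceptions, named after their values were seen, were RPL41A and RPL41B, which encode the shortest protein of the ribosome, with 3840 and 4312 RPKM at 260 min against 6528 and 7036 RPKM at 240 min.

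Most ribosomal proteins are encoded by a pair of near-identical genes, and the authors' counting could have divided reads between them, so values of single copies are uncertain. Between the 59 pairs' members the median difference in change was 0.53, and 9 pairs differed by at least 1 (2-fold). RPS26B (YER131W, chromosome V, 423952 to 424311), of the small subunit, had 47.1 RPKM at 260 min against 1016 RPKM at 240 min, a change of -4.40, and its partner RPS26A, named for the comparison, had 405.7 RPKM at 260 min against 1711 RPKM at 240 min, a change of -2.07. RPS22A (81.4 against 1429.5 RPKM at 260 and 240 min), RPL13A (34.5 against 594 RPKM), RPL9A (98.2 against 1616 RPKM), RPL6B (32.3 against 512 RPKM) and RPS19A (50.2 against 724 RPKM) were likewise the deeper falling members of their pairs. Whichever copy fell further, both fell in each of these pairs.

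Most genes of translation fell. Of 39 initiation and elongation factors, 33 fell and none rose, with a median of -1.91. YEF3 (YLR249W, chromosome XII, 636780 to 639914), the fungal elongation factor eEF3, had 42.1 RPKM at 260 min against 969 RPKM at 240 min. RLI1, which recycles ribosomes, had 6.85 RPKM at 260 min against 94.9 RPKM at 240 min, and GCN3, a subunit of eIF2B, 6.01 RPKM at 260 min against 70.8 RPKM at 240 min. HYP2, which encodes eIF5A and was picked out after its value was seen, had 4205 RPKM at 260 min against 3345 RPKM at 240 min.

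Of 19 cytosolic aminoacyl-tRNA synthetases, the enzymes that charge transfer RNAs, 17 fell, with a median of -2.02. YHR020W, the prolyl enzyme, had 11.8 RPKM at 260 min against 179 RPKM at 240 min, KRS1, the lysyl enzyme, 9.28 RPKM at 260 min against 119.9 RPKM at 240 min, and MES1, the methionyl enzyme, 9.91 RPKM at 260 min against 88.3 RPKM at 240 min. Of 37 transfer RNA modification enzymes 31 fell, with a median of -2.07, among them the methyltransferase subunits TRM11 (1.64 against 44.2 RPKM at 260 and 240 min) and TRM82 (3.93 against 52.1 RPKM) and the dihydrouridine synthase DUS3 (3.01 against 39.8 RPKM). No synthetase or modification enzyme of the lists rose.

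Proteins that move ribosomal cargo through nuclear pores or fold new chains moved less evenly. Of 24 karyopherins and transport genes 12 fell and 1 rose, with a median of -1.10. KAP123, the importin of ribosomal proteins, had 6.43 RPKM at 260 min against 85.5 RPKM at 240 min, and ARX1, an export factor of the 60S subunit, 3.07 RPKM at 260 min against 52.5 RPKM at 240 min. The 2 genes for the Ran GTPase, which drives nuclear transport, parted: GSP1 had 80.8 RPKM at 260 min against 648 RPKM at 240 min and GSP2 390.4 RPKM at 260 min against 51.4 RPKM at 240 min. Of the 15 subunits of the CCT chaperonin and prefoldin, which fold actin and tubulin, 7 fell, with a median of -0.91, led by PAC10 (11.8 against 58.7 RPKM), CCT5 (33.3 against 101 RPKM) and GIM3 (23.9 against 79.6 RPKM).

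**Figure D4:**
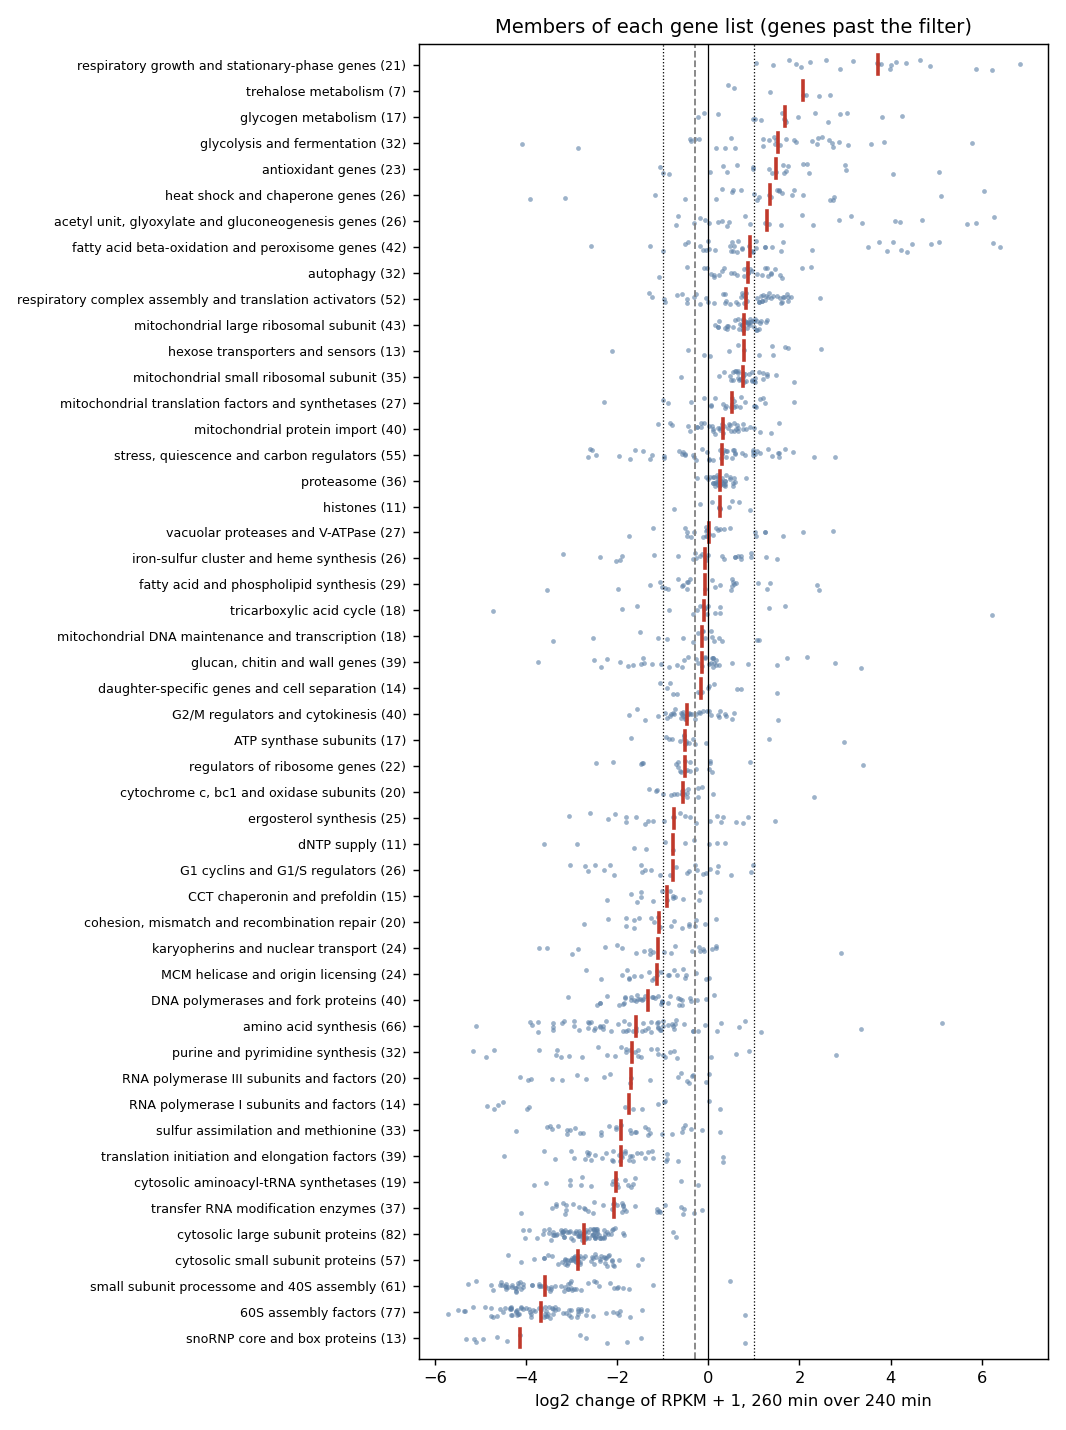
Log2 change (260 min over 240 min) of every member past the filter in the 50 gene lists, ordered by list median (red bar), with the number of members in parentheses; the dashed line is the median over all genes, -0.29, and the dotted lines are the 2-fold limits. Lists of ribosome making sit at the bottom with medians down to -4.14 and the respiratory growth and stationary-phase genes at the top with 3.73.

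Genes for the synthesis of amino acids and nucleotides fell, with a few isoenzymes going the other way. Of 66 amino acid synthesis genes 47 fell and 3 rose, with a median of -1.59. LEU9 (YOR108W, chromosome XV, 523027 to 524841), an isopropylmalate synthase of leucine synthesis, had 2.31 RPKM at 260 min against 113 RPKM at 240 min. BAT1, the mitochondrial branched-chain aminotransferase, had 51.7 RPKM at 260 min against 796 RPKM at 240 min, and GDH1, which makes glutamate from ammonium, 288 RPKM at 260 min against 4189.9 RPKM at 240 min. ARO9, an aromatic aminotransferase of the breakdown pathway, rose instead, to 143 RPKM at 260 min against 3.09 RPKM at 240 min. ILV5, of isoleucine and valine synthesis and among the more abundant members, had 166 RPKM at 260 min against 1781 RPKM at 240 min.

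Sulfur assimilation and methionine genes had 26 of 33 members fallen and none risen, with a median of -1.91. SAM1, an S-adenosylmethionine synthetase, had 41.1 RPKM at 260 min against 783 RPKM at 240 min, MUP1, a methionine permease, 11.8 RPKM at 260 min against 148 RPKM at 240 min, and CYS3, of cysteine synthesis, 41.3 RPKM at 260 min against 466 RPKM at 240 min. Of 32 purine and pyrimidine genes 23 fell and 1 rose, with a median of -1.67. URA7 (YBL039C, chromosome II, 143989 to 145728), the major CTP synthase, had 1.01 RPKM at 260 min against 70.5 RPKM at 240 min, and GUA1, of GMP synthesis, 6.83 RPKM at 260 min against 201 RPKM at 240 min. IMD4, an IMP dehydrogenase that overlaps another annotated gene, had 2.29 RPKM at 260 min against 95.9 RPKM at 240 min, so its reads cannot be told from those of that gene. URA10, the minor orotate phosphoribosyltransferase, was the 1 that rose, with 139.9 RPKM at 260 min against 19.1 RPKM at 240 min.

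GCN4, which activates genes of amino acid synthesis, did not pass 2-fold itself, with 1579.8 RPKM at 260 min against 2364 RPKM at 240 min. Its level at 260 min was the lowest of the 12 libraries.

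Membrane lipid genes were mixed. Of 25 ergosterol genes 10 fell and 1 rose, with a median of -0.75; ERG3, a desaturase, had 94.2 RPKM at 260 min against 786 RPKM at 240 min, ERG25, a methyl oxidase, 106 RPKM at 260 min against 488 RPKM at 240 min, CYB5, the cytochrome b5 that serves them, 8.60 RPKM at 260 min against 57.1 RPKM at 240 min, and HMG2, an HMG-CoA reductase, rose, with 55.2 RPKM at 260 min against 19.5 RPKM at 240 min. Of 29 fatty acid and phospholipid genes 5 fell and 5 rose (17.2% rose and 17.2% fell, against 12.0% and 25.3% of all genes): the elongases ELO3 (22.9 against 278 RPKM at 260 and 240 min) and ELO2 (40.6 against 163 RPKM) and the acyltransferase SLC1 (48.7 against 119.8 RPKM) fell, the last with a change of -1.28 that was -0.96 with median-ratio scaling, and the acyl-CoA synthetase FAA1 (435 against 79.4 RPKM) rose. The median of this list, -0.08, changed sign with median-ratio scaling (0.23).

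Most genes of DNA polymerases and the fork fell, and many of them from a maximum at 240 min itself. Of 40 DNA polymerase and fork genes 28 fell and none rose, with a median of -1.32, and 24 of the 40 were highest at 240 min. POL30 (YBR088C, chromosome II, 424990 to 425766), which encodes the sliding clamp PCNA, had 44.3 RPKM at 260 min against 382 RPKM at 240 min. POL1, the catalytic subunit of polymerase alpha, had 9.54 RPKM at 260 min against 56.4 RPKM at 240 min, and POL32, a subunit of polymerase delta, 11.2 RPKM at 260 min against 62.8 RPKM at 240 min; like POL30, both were highest at 240 min. Of 24 MCM and origin licensing genes 14 fell, with a median of -1.12, and of the 20 cohesion and repair genes 11, with a median of -1.08. The 6 MCM helicase subunits had a median of -1.74 with 5 fallen, led by MCM7 (6.49 against 37.01 RPKM at 260 and 240 min) and MCM3 (10.8 against 42.9 RPKM). The 6 subunits of the origin recognition complex had a median of -0.78 with 2 fallen, too few genes to tell apart from the 25.3% of all genes. This split was made after the values were seen.

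CDC45, which activates the helicase, had 5.87 RPKM at 260 min against 43.4 RPKM at 240 min. MCD1, the cohesin ring subunit, had 18.2 RPKM at 260 min against 126 RPKM at 240 min, and RNR1, the large subunit of ribonucleotide reductase, 14.1 RPKM at 260 min against 183 RPKM at 240 min. UNG1 (10.5 against 51.9 RPKM at 260 and 240 min), uracil-DNA glycosylase, RAD59 (31.5 against 113 RPKM), of recombination, DUT1 (42.3 against 134 RPKM), dUTPase, and DCD1 (2.88 against 27.5 RPKM), dCMP deaminase, also fell. Of the 11 genes of dNTP supply 4 fell, with a median of -0.78. With so few genes this share cannot be told apart from the 25.3% of all genes that fell.

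The G1 cyclins and G1/S regulators divided: 12 of 26 fell and none rose. FAR1, the cyclin-dependent kinase inhibitor of the mating response, had 5.43 RPKM at 260 min against 51.6 RPKM at 240 min, PCL1, a Pho85 cyclin, 19.6 RPKM at 260 min against 128 RPKM at 240 min, and TOS4, a target of the SBF activator, 16.1 RPKM at 260 min against 111 RPKM at 240 min. Among the G1 cyclins, CLN2 had 20.99 RPKM at 260 min against 122 RPKM at 240 min and CLN3 10.9 RPKM at 260 min against 52.4 RPKM at 240 min, so both fell, while CLN1 had 78.97 RPKM at 260 min against 76.7 RPKM at 240 min. CLN1 and CLN2, close relatives, thus changed by 0.04 and -2.48.

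Histone genes did not fall with the replication genes. None of 11 passed 2-fold, 9 were higher at 260 min, and the median was 0.25. HTA1, for histone H2A, had 2962 RPKM at 260 min against 1578 RPKM at 240 min, which is past 2-fold with median-ratio scaling (1.23), and its second copy HTA2 867 RPKM at 260 min against 977 RPKM at 240 min. HHT2, for H3, had 3256 RPKM at 260 min against 2257 RPKM at 240 min, and HHO1, for the linker histone, 481 RPKM at 260 min against 302 RPKM at 240 min.

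Later division genes passed 2-fold less often than all genes, of which 25.3% fell and 12.0% rose. Of 40 G2/M and cytokinesis genes 4 fell and 1 rose, with a median of -0.47, which quantile normalization turned to 0.14. HSL1 (27.8 against 95.7 RPKM at 260 and 240 min) and SWE1 (18.6 against 56.9 RPKM), kinases of the morphogenesis checkpoint, and KIN4 (7.72 against 21.7 RPKM), of the spindle position checkpoint, fell, and MIH1 (86.6 against 29.2 RPKM), the phosphatase that opposes SWE1, rose. The mitotic cyclin CLB2 had 2.36 RPKM at 260 min against 6.30 RPKM at 240 min, at 17.8 against 47.6 estimated reads, and its change of -1.12 came to -0.86 with median-ratio scaling. Among 14 daughter-specific and cell separation genes 1 fell, SUN4 (13.8 against 29.8 RPKM), a wall protein of septation, and 1 rose, PIR1 (274 against 95.4 RPKM), also of the wall. The fall of SUN4 did not pass 2-fold with median-ratio scaling. AMN1 (20.8 against 39.98 RPKM), a mitotic exit inhibitor, and BUD9 (13.6 against 25.1 RPKM), a bud site protein, stayed within 2-fold. Of 39 wall genes 12 fell and 5 rose, shares near those of all genes (12.8% rose and 30.8% fell, against 12.0% and 25.3% of all genes): the transglycosylase UTR2 (2.16 against 41.3 RPKM), the glucan synthase FKS1 (40.3 against 234 RPKM) and the mannosyltransferase MNN1 (10.2 against 56.4 RPKM) fell, and the mannoprotein CWP1 (133 against 12.2 RPKM) rose.

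Mitochondrial ribosomal protein genes went the opposite way from the cytosolic ones, by a small amount in nearly every member. Of 78, 77 were higher at 260 min and 72 reached their maximum of the 12 libraries there (16.7% of all genes did). The median change was 0.78, however, and 21 passed 2-fold (12.0% of all genes did). With median-ratio scaling the median was 1.10 and 54 passed, beside 1085 of all 5979 genes that were 2-fold higher. None fell. Their share of all signal was 2.08% at 260 min, against 1.16% at 240 min, beside 2.38% at 260 min and 15.2% at 240 min for the cytosolic ones.

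MRPL23 (597 against 244 RPKM at 260 and 240 min), MRPL6 (304 against 125 RPKM) and MRPL50 (322 against 143 RPKM) led the large subunit. MRPS12 (1168 against 415 RPKM), EHD3 (144 against 38.3 RPKM), an acyl-CoA hydrolase listed with the small subunit, and RSM28 (376 against 154 RPKM) led the small one. The mean of the 78 in log2(RPKM + 1) was lowest at 220 min, at 6.11, and stood at 6.41 at 230 min, 7.53 at 240 min and 8.32 at 260 min. Mitochondrial translation factors and synthetases had 6 of 27 risen and 2 fallen. MSF1, the mitochondrial phenylalanyl-tRNA synthetase, had 132 RPKM at 260 min against 34.97 RPKM at 240 min, AIM10, related to prolyl synthetases, 68.01 RPKM at 260 min against 28.3 RPKM at 240 min, and MSD1, the aspartyl enzyme, 96.4 RPKM at 260 min against 41.6 RPKM at 240 min. CRS1, a cysteinyl-tRNA synthetase placed in this list, fell, with 18.2 RPKM at 260 min against 92.2 RPKM at 240 min. Whether it serves mitochondria alone was not examined.

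Genes for building the respiratory complexes were mostly higher at 260 min and genes for their subunits mostly lower by a small amount, a contrast that was not tested. Of 52 assembly factors and translation activators 24 rose and 2 fell, with a median of 0.82: CBP4, an assembly factor of the bc1 complex, had 756 RPKM at 260 min against 137 RPKM at 240 min, and the copper chaperones SCO1 and COX17 of cytochrome oxidase had 224 and 762 RPKM at 260 min against 62.8 and 226 RPKM at 240 min. CBS1, which activates translation of cytochrome b, fell, with 14.5 RPKM at 260 min against 37.6 RPKM at 240 min, a change of -1.31.

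Of 20 genes of cytochrome c, the bc1 complex and cytochrome oxidase, 18 were lower at 260 min. Of these 20, 3 fell and 1 rose, with a median of -0.56. Of 17 ATP synthase genes 15 were lower, 1 fell and 2 rose, with a median of -0.51. Over all genes 25.3% fell and 12.0% rose, with a median of -0.29, so neither list held a larger share of fallen genes than all genes. Most of all genes were also lower at 260 min, as their median of -0.29 shows. In both lists 12 members had been highest at 0 min, where 11.1% of all genes were highest. COX5A (592 against 1452 RPKM at 260 and 240 min), QCR6 (674 against 1495 RPKM) and QCR2 (467 against 1025 RPKM) fell, none of them by 2-fold with median-ratio scaling (-0.97, -0.83 and -0.81). CYC7, the second isoform of cytochrome c, rose, with 37.6 RPKM at 260 min against 6.71 RPKM at 240 min. ATP20, subunit g of the ATP synthase, fell, with 239 RPKM at 260 min against 780.4 RPKM at 240 min; TIM11, subunit e, had 678 RPKM at 260 min against 1289.9 RPKM at 240 min and ATP14, subunit h, 548 RPKM at 260 min against 1004 RPKM at 240 min; STF2, a factor that stabilizes the enzyme's inhibitor, rose, with 4279 RPKM at 260 min against 543 RPKM at 240 min.

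In the tricarboxylic acid cycle CIT3 (YPR001W, chromosome XVI, 556377 to 557837), a mitochondrial citrate and methylcitrate synthase, had 1450.3 RPKM at 260 min against 18.5 RPKM at 240 min. IDH1 (424 against 1258 RPKM at 260 and 240 min) and IDH2 (391 against 1462 RPKM), the subunits of NAD-dependent isocitrate dehydrogenase, fell together. Of the 18 genes 3 rose and 3 fell (16.7% rose and 16.7% fell, against 12.0% and 25.3% of all genes), and the median, -0.09, changed sign with median-ratio scaling (0.23).

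Of 40 protein import genes 4 rose and 1 fell; the share that rose is near that of all genes (10.0% rose and 2.50% fell, against 12.0% and 25.3% of all genes). MIA40, the receptor of the intermembrane space, had 853 RPKM at 260 min against 289 RPKM at 240 min, SSC1, the mitochondrial Hsp70, 1785 RPKM at 260 min against 682 RPKM at 240 min, and the small carriers TIM8 and TIM12 moved apart, with 368 and 39.9 RPKM at 260 min against 166 and 86.5 RPKM at 240 min. The fall of TIM12 did not pass 2-fold with median-ratio scaling. Among genes of mitochondrial DNA, the carrier YHM2 (140.1 against 818 RPKM at 260 and 240 min), and the helicase PIF1 (14.1 against 41.5 RPKM) fell, and the packaging protein ABF2 (613 against 281 RPKM) rose. Among iron-sulfur and heme genes, ISU2, the second scaffold protein, had 10.2 RPKM at 260 min against 100.4 RPKM at 240 min, HEM13, coproporphyrinogen oxidase, 14.6 RPKM at 260 min against 80.7 RPKM at 240 min, ISA1, of late cluster assembly, 95.1 RPKM at 260 min against 390.0 RPKM at 240 min, and IBA57, also of late assembly, 179.7 RPKM at 260 min against 62.8 RPKM at 240 min.

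The list with the highest median of the 50 was that of respiratory growth and stationary phase. All 21 of its genes rose, 17 of them at least 4-fold, with a median of 3.73, and their share of all signal was 2.82% at 260 min, against 0.359% at 240 min. SPG1 (YGR236C, chromosome VII, 962530 to 962817), required for survival at high temperature in stationary phase, had 3348 RPKM at 260 min against 28.3 RPKM at 240 min, a ratio of 118-fold and the largest rise of any gene with a symbol. RGI2 (YIL057C, chromosome IX, 247902 to 248396), induced by respiratory growth, had 4178 RPKM at 260 min against 55.2 RPKM at 240 min, and its relative RGI1 1504 RPKM at 260 min against 204 RPKM at 240 min. SIP18 (YMR175W, chromosome XIII, 611016 to 611255), of desiccation tolerance, had 2694 RPKM at 260 min against 44.7 RPKM at 240 min, and it had been highest at 60 min, at 6433 RPKM. The level of SPG1 at 260 min was the highest of the 12 libraries, and that of RGI2 lay below the 5729 RPKM of 20 min.

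Genes that import acetate, activate it and feed it to mitochondria rose in part. Of 26 acetyl unit, glyoxylate and gluconeogenesis genes 14 rose and none fell, with a median of 1.28 and a share of 7.01% at 260 min against 2.09% at 240 min. ADY2 (YCR010C, chromosome III, 132273 to 133124), an acetate permease, had 3728 RPKM at 260 min against 47.2 RPKM at 240 min. ALD4 (YOR374W, chromosome XV, 1039840 to 1041399), the mitochondrial acetaldehyde dehydrogenase, had 10829.7 RPKM at 260 min against 210.2 RPKM at 240 min. CAT2 (YML042W, chromosome XIII, 192788 to 194800), carnitine acetyltransferase, had 1153 RPKM at 260 min against 18.7 RPKM at 240 min. The glyoxylate cycle's own enzymes ICL1 and MLS1 stood within 2-fold, at 636 and 596 RPKM at 260 min against 517 and 449 RPKM at 240 min, and PCK1, of gluconeogenesis, at 79.6 RPKM at 260 min against 126 RPKM at 240 min; these 3 were chosen after their values were seen.

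All 13 genes of fatty acid beta-oxidation, the peroxisomal breakdown of fatty acids to acetyl-CoA, rose, 12 of them at least 4-fold, with a median of 4.23. POX1 (YGL205W, chromosome VII, 108158 to 110404), the acyl-CoA oxidase of the first step, had 922 RPKM at 260 min against 9.99 RPKM at 240 min, and FOX2 (YKR009C, chromosome XI, 454352 to 457054), the enzyme of the next 2 steps, 864 RPKM at 260 min against 10.4 RPKM at 240 min. CTA1 (YDR256C, chromosome IV, 968133 to 969680), the peroxisomal catalase, had 994 RPKM at 260 min against 28.9 RPKM at 240 min, and FAT3 (YKL187C, chromosome XI, 89284 to 91536), of fatty acid uptake and in none of the lists, 502 RPKM at 260 min against 6.60 RPKM at 240 min. The 29 peroxins and inheritance factors, which build the organelle, had a median of 0.53 with 6 risen and 2 fallen; the split from the enzymes was made after the values were seen. PEX21, of protein import into peroxisomes, fell, with 41.6 RPKM at 260 min against 254 RPKM at 240 min.

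Most glycolytic and fermentation genes rose: 22 of 32, with 2 fallen, a median of 1.52 and a share of 7.35% at 260 min against 1.65% at 240 min. TDH1 (YJL052W, chromosome X, 338271 to 339269), of the 3 glyceraldehyde-3-phosphate dehydrogenases, had 4192 RPKM at 260 min against 289 RPKM at 240 min, ENO1 (YGR254W, chromosome VII, 1000927 to 1002240), an enolase, 2756 RPKM at 260 min against 232 RPKM at 240 min, and ADH2 (YMR303C, chromosome XIII, 873291 to 874337), the alcohol dehydrogenase that consumes ethanol, 4572 RPKM at 260 min against 81.5 RPKM at 240 min. These genes have near-identical relatives, so single values are uncertain. PFK27, which makes the activator of phosphofructokinase, fell, with 2.78 RPKM at 260 min against 63.2 RPKM at 240 min. The phosphofructokinase subunits PFK1 and PFK2, chosen after their values were seen, stood within 2-fold, at 193 and 197 RPKM at 260 min against 172 and 152 RPKM at 240 min.

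Of 18 hexose transporters and sensors 13 passed the filter, and of these 6 rose and 1 fell. HXT5 (YHR096C, chromosome VIII, 294669 to 296447), a transporter of moderate affinity found in slow growth, had 735 RPKM at 260 min against 132 RPKM at 240 min, HXT10 14.9 RPKM at 260 min against 3.68 RPKM at 240 min and HXT1, of low affinity, 34.7 RPKM at 260 min against 10.1 RPKM at 240 min, while HXT4, of high affinity, had 4.82 RPKM at 260 min against 24.2 RPKM at 240 min. The family is near-identical in places, so single values are uncertain.

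Most genes of reserve carbohydrates rose. Of 17 glycogen genes 13 rose and none fell, with a median of 1.68: GPH1 (YPR160W, chromosome XVI, 861306 to 864014), glycogen phosphorylase, had 546 RPKM at 260 min against 27.7 RPKM at 240 min, GIP2, a phosphatase subunit of glycogen synthesis, 282 RPKM at 260 min against 19.3 RPKM at 240 min, and GDB1, the debranching enzyme, 133 RPKM at 260 min against 15.3 RPKM at 240 min. Of 7 trehalose genes 5 rose, with a median of 2.09: TSL1 (124 against 18.4 RPKM at 260 and 240 min) and TPS2 (409.7 against 91.6 RPKM), of trehalose synthesis, and ATH1 (91.2 against 16.1 RPKM), the acid trehalase.

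Most stress genes of the lists rose. Of 26 heat shock and chaperone genes 16 rose and 3 fell, with a median of 1.36. HSP12 (YFL014W, chromosome VI, 107256 to 107585), a membrane-associated stress protein, had 17625 RPKM at 260 min against 266 RPKM at 240 min and was the most abundant of the 12 largest rises. HSP26 (YBR072W, chromosome II, 382030 to 382674), a small heat shock protein, had 6766 RPKM at 260 min against 196 RPKM at 240 min, below its 18080.4 RPKM at 140 min, and SSA3, an inducible Hsp70, 201 RPKM at 260 min against 28.9 RPKM at 240 min. SSB1, an Hsp70 that sits on the ribosome, was among the 3 that fell, with 69.2 RPKM at 260 min against 1056 RPKM at 240 min. Of 23 antioxidant genes 14 rose and 1 fell, with a median of 1.48: CTT1, the cytosolic catalase, had 94.3 RPKM at 260 min against 4.73 RPKM at 240 min, GPX1, a glutathione peroxidase, 485 RPKM at 260 min against 59.1 RPKM at 240 min, and TRR1, thioredoxin reductase, fell, with 180.2 RPKM at 260 min against 377 RPKM at 240 min, a change of -1.06 that was -0.74 with median-ratio scaling.

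Genes of self-digestion rose in part and proteasome genes changed by less than 2-fold. Of 32 autophagy genes 12 rose and 1 fell, with a median of 0.86: the receptors ATG34 (172 against 35.1 RPKM at 260 and 240 min), ATG36 (128 against 30.3 RPKM) and ATG39 (186 against 60.03 RPKM) rose, and ATG10 (9.42 against 21.1 RPKM), a conjugating enzyme, fell. The fall of ATG10 did not pass 2-fold with median-ratio scaling. Vacuolar proteases and their inhibitor had 7 of 9 risen, led by PRC1, carboxypeptidase Y, with 1037 RPKM at 260 min against 155 RPKM at 240 min, the cysteine aminopeptidase LAP3 (269 against 62.8 RPKM) and the aminopeptidase APE3 (685 against 218 RPKM). The 18 genes of the V-ATPase, which acidifies the vacuole, had 2 fallen and none risen. Neither share was above that of all genes, of which 25.3% fell and 12.0% rose. Its assembly factor PKR1 (23.1 against 79.8 RPKM) was among the 2 that fell. The split of vacuolar genes was made after the values were seen. None of 36 proteasome genes passed 2-fold on the scale of library totals. Their changes lay between -0.24 and 0.82, all above the median of -0.29 over all genes. PUP3, a core subunit, had 462 RPKM at 260 min against 314 RPKM at 240 min, RPN3, of the lid, 261 RPKM at 260 min against 174 RPKM at 240 min, and RPN4, the activator of proteasome genes, 183 RPKM at 260 min against 103 RPKM at 240 min. The change of RPN4 equalled the upper end, 0.82, and was past 2-fold higher with median-ratio scaling.

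Of 22 regulators of ribosome genes 5 fell and 1 rose, with a median of -0.52, a share of fallen genes near that of all genes (4.55% rose and 22.7% fell, against 12.0% and 25.3% of all genes). IFH1, a coactivator of ribosomal protein genes, had 3.36 RPKM at 260 min against 17.6 RPKM at 240 min, and CRF1, described as its competing corepressor, 139.8 RPKM at 260 min against 12.5 RPKM at 240 min. TOD6 and DOT6 are related repressors of ribosome assembly genes: TOD6 had 4.78 RPKM at 260 min against 31.1 RPKM at 240 min and DOT6 134 RPKM at 260 min against 70.4 RPKM at 240 min, a change of 0.92 that reached 1.23 with median-ratio scaling. SFP1, an activator of ribosome genes, had 34.1 RPKM at 260 min against 54.6 RPKM at 240 min, STB3, a repressor, 70.4 RPKM at 260 min against 69.3 RPKM at 240 min, and ABF1, a general factor of many promoters, fell, with 26.2 RPKM at 260 min against 74.7 RPKM at 240 min.

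Of 55 stress, quiescence and carbon regulators 12 rose and 10 fell (21.8% rose and 18.2% fell, against 12.0% and 25.3% of all genes). USV1, a stress-response factor, had 289 RPKM at 260 min against 40.97 RPKM at 240 min, XBP1, a repressor induced by stress, 215 RPKM at 260 min against 42.6 RPKM at 240 min, and TPK2, a catalytic subunit of protein kinase A, 281 RPKM at 260 min against 76.5 RPKM at 240 min. GAT1, an activator of nitrogen use, fell, with 31.3 RPKM at 260 min against 199.9 RPKM at 240 min. HAP4, the limiting subunit of the activator of respiratory genes, had 218 RPKM at 260 min against 512 RPKM at 240 min, a change of -1.23 that was -0.91 with median-ratio scaling. MSN4, an activator of stress genes, had 14.1 RPKM at 260 min against 14.4 RPKM at 240 min. ACT1, actin, often taken as a constant, had 1215 RPKM at 260 min against 1042 RPKM at 240 min.

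After the values were seen, 56 pairs of isoenzymes and other related genes were put together to show both members side by side. In 55 both members passed the filter. The difference in change between the 2 members had a median of 1.88 and was at least 2 (4-fold) in 27 pairs; in 11 pairs 1 member rose and the other fell, and in 12 with median-ratio scaling. Since the pairs were picked with their values in view, nothing is read from these counts beside the 12.0% of all genes that rose and the 25.3% that fell.

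BAT2, the cytosolic branched-chain aminotransferase, had 1558 RPKM at 260 min against 152 RPKM at 240 min, opposite to mitochondrial BAT1. TKL2, the minor transketolase, had 304 RPKM at 260 min against 5.39 RPKM at 240 min, and TKL1, the major one, 150.1 RPKM at 260 min against 472 RPKM at 240 min. HXK1, a hexokinase, had 4033 RPKM at 260 min against 642 RPKM at 240 min, and HXK2, the one of growth on glucose, 75.05 RPKM at 260 min against 554 RPKM at 240 min. LEU4, the main isopropylmalate synthase, had 1420.2 RPKM at 260 min against 633 RPKM at 240 min, opposite to LEU9.

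GDH3, the NADP-dependent glutamate dehydrogenase of slow growth, had 241 RPKM at 260 min against 58.4 RPKM at 240 min, opposite to GDH1. NDE2, an external NADH dehydrogenase, had 349 RPKM at 260 min against 17.03 RPKM at 240 min, and NDE1 434 RPKM at 260 min against 949.5 RPKM at 240 min; GND2, a phosphogluconate dehydrogenase, had 479 RPKM at 260 min against 33.8 RPKM at 240 min, and GND1 352 RPKM at 260 min against 743 RPKM at 240 min. The falls of NDE1 and GND1 did not pass 2-fold with median-ratio scaling. Among signalling genes RAS2 had 631 RPKM at 260 min against 254 RPKM at 240 min and RAS1 7.87 RPKM at 260 min against 48.1 RPKM at 240 min. ARO8 (104 against 286 RPKM at 260 and 240 min) and URA5 (123 against 379 RPKM) fell where ARO9 and URA10 rose, and so completed the 11 with the Ran pair.

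**Figure D5:**
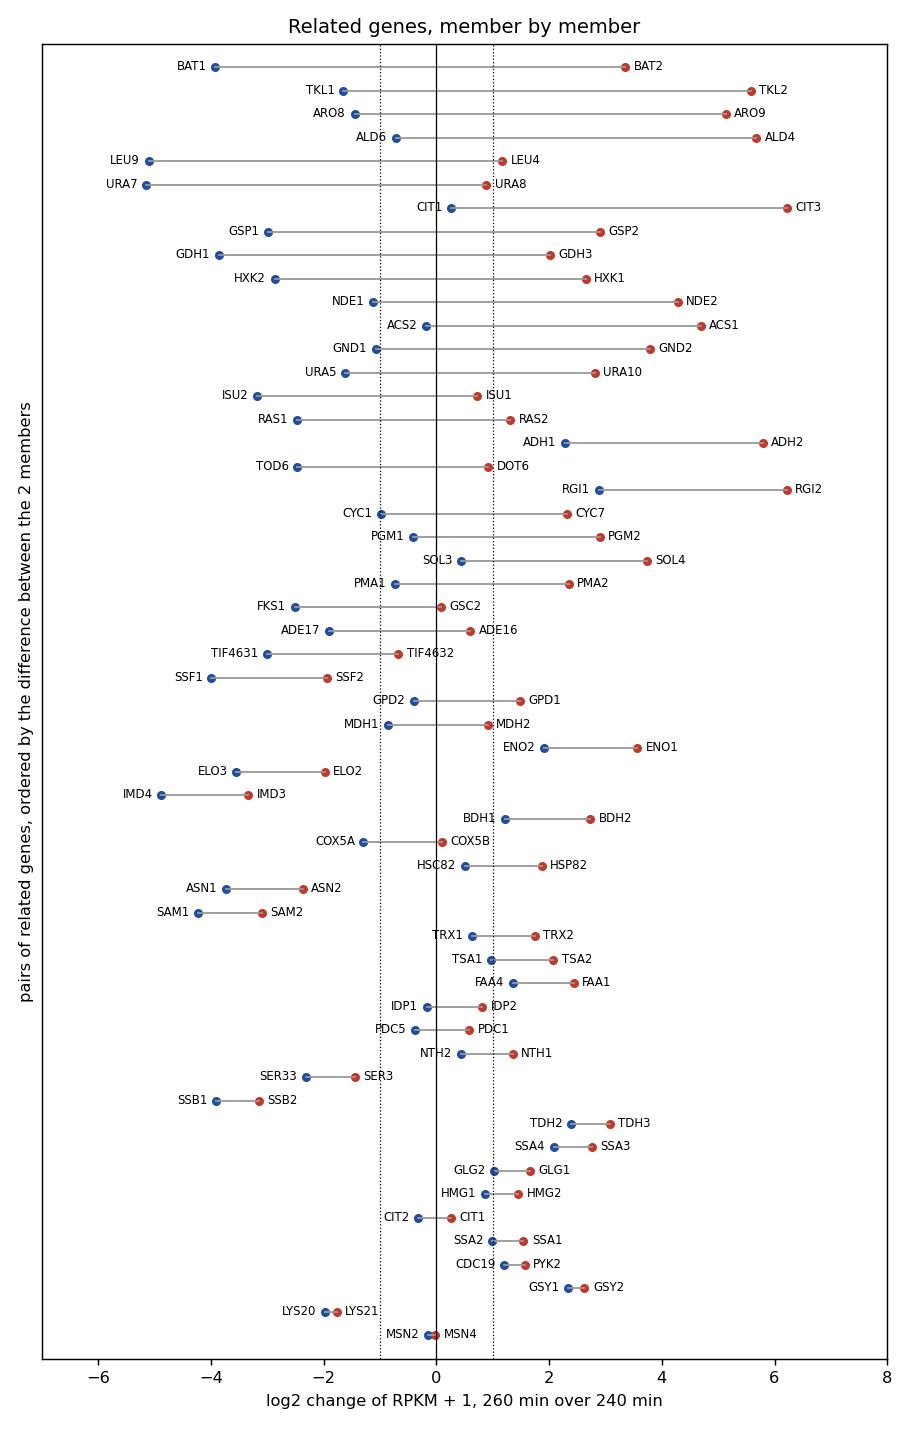
Log2 change (260 min over 240 min) of both members of 55 pairs of related genes, the lower member blue and the higher red, ordered by their difference; dotted lines mark 2-fold. The 11 pairs whose line spans both dotted limits, BAT1 and BAT2 at the top among them, have 1 member fallen and 1 risen, and the 15 pairs at the bottom changed within 2-fold of each other.

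Other pairs moved together. LYS20 and LYS21, homocitrate synthases of lysine synthesis, had 155 and 159 RPKM at 260 min against 613 and 543 RPKM at 240 min. GSY1 and GSY2, the glycogen synthases, had 129.9 and 216 RPKM at 260 min against 24.8 and 34.1 RPKM at 240 min. Members of 15 pairs changed within 2-fold of each other.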

How the data were processed

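RNA was measured in 12 libraries of total RNA, 1 per time point, and reads were aligned with Bowtie2 to build R64, per the submitters' processing notes; the sources used here give neither the counting tool nor the annotation. The signal was deposited under the heading RKPM; from its values it was read here as base coverage per gene length and library size, which no label states. The authors also deposited a table of fractions, each gene divided by its highest library, which added no measurement and served only as a check. The kit did not mark strand, so overlapping and antisense genes cannot be told apart.

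From the deposited signal, RPKM was computed by dividing by 50, the read length at which the low values best matched whole bases, and changes as log2(RPKM + 1) at 260 min minus 240 min, with Python 3.11.15, pandas 2.3.3 and numpy 2.4.6. Gene IDs were matched to an R64 RefSeq gene table: 5891 of 6562 matched, and 503 of the 5979 genes past the filter did not. The computation was tested on simulated data with known changes. With 1 library per time point, no test was run; depth limits low genes, and the number of reads covers counting error only.

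The genes, the 50 lists and the comparison were chosen with earlier results of these data known. The genes named are those with a symbol that were among the 12 largest rises or falls, the 3 members of each list that moved furthest in the direction of its median, the member that moved furthest past 2-fold against it, and a fixed set of 20 regulators and reference genes. Splits of lists, related pairs and the genes said to be picked out were chosen after the values were seen. Alternatives were median-ratio scaling, quantile normalization, a total without cytosolic ribosomal protein genes, pseudocounts of 0.1 and 5, and other filters. Promoter sequences were not used here, so motif shares were not computed. Some genes that the rule would name are not reported here.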

Additional observations from a re-analysis of the deposited data

How the results depend on the processing

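No paired analysis was possible because each time point has 1 library. The count of genes at least 2-fold higher at 260 min was 1085 with median-ratio scaling, against 720, and a minimum mean deposited value of 2500 left 809 genes at least 2-fold and 455 at least 4-fold lower, among the 3085 genes that passed. The share of genes past 2-fold between 0 and 20 min was 16.4% with quantile normalization. Of the 50 list medians, 41 kept their side of the 2-fold limit with median-ratio scaling, 43 with quantile normalization, 47 with a pseudocount of 5, 49 with a total without ribosomal protein genes and 50 with a pseudocount of 0.1 or no filter. With median-ratio scaling the medians became 1.17 for autophagy, 1.24 for fatty acid beta-oxidation and peroxisome genes, 1.10 for hexose transporters, 1.11 and 1.08 for the large and small mitochondrial ribosomal subunits, 1.14 for respiratory complex assembly, -0.83 for MCM helicase and licensing, -0.77 for cohesion and repair and -0.79 for karyopherins. With quantile normalization they became 1.16 for autophagy, 1.09 for beta-oxidation and peroxisome genes, 1.13 for hexose transporters, -0.89 for DNA polymerases, -0.54 for MCM helicase and licensing, -0.70 for cohesion and repair and -0.62 for karyopherins. A pseudocount of 5 gave -0.94 for MCM helicase and licensing, -0.998 for cohesion and repair and -0.98 for karyopherins, and a total without ribosomal protein genes gave -1.11 for the CCT chaperonin. Medians near 0 changed sign: those of daughter-specific genes, lipid synthesis, iron-sulfur and heme genes, mitochondrial DNA and the tricarboxylic acid cycle with median-ratio scaling and with quantile normalization, that of wall genes with median-ratio scaling, that of G2/M genes with quantile normalization and that of vacuolar genes with a total without ribosomal protein genes. Of the 190 genes named by rule, 17 lost and 7 gained a 2-fold change under at least 1 alternative. Scaling shifts every gene by nearly the same amount by its construction; the cause of the other shifts was not tested.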

Other observations

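Of 3501 genes with a symbol that were in none of the lists, 103 rose and 171 fell at least 4-fold, which is 2.94% and 4.88%, below the 4.06% and 11.6% of all genes. The lists were chosen with earlier results of these data known, which favours lower shares outside them, so nothing is read from this difference. The genes named here were chosen after their values were seen. UPS2, of mitochondrial phospholipid handling, had 17.2 RPKM at 260 min against 561 RPKM at 240 min, and HO, the endonuclease of mating-type switching, 2.43 RPKM at 260 min against 80.8 RPKM at 240 min. AGP1, a broad amino acid permease, had 13.1 RPKM at 260 min against 323 RPKM at 240 min, OAC1, a mitochondrial oxaloacetate carrier, 8.46 RPKM at 260 min against 213 RPKM at 240 min, and MIS1, a mitochondrial one-carbon enzyme, 4.88 RPKM at 260 min against 88.7 RPKM at 240 min. RKI1, of the pentose phosphate pathway, had 2.18 RPKM at 260 min against 79.4 RPKM at 240 min. Among the rises, EGO4 had 4505 RPKM at 260 min against 95.7 RPKM at 240 min, CYB2, the mitochondrial lactate dehydrogenase, 1406 RPKM at 260 min against 47.1 RPKM at 240 min, and NCE102, of plasma membrane domains, 5293 RPKM at 260 min against 335 RPKM at 240 min. The maltose genes MAL11, MAL12 and MAL32 had 1162, 1327 and 1369 RPKM at 260 min against 69.7, 96.2 and 91.1 RPKM at 240 min; MAL12 and MAL32 are near-identical, so their separate values are uncertain. DDR2, a small stress-induced protein, had 8145 RPKM at 260 min against 673 RPKM at 240 min, and GAD1, glutamate decarboxylase, 263 RPKM at 260 min against 20.8 RPKM at 240 min.

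Among 4903 pairs of adjacent genes that do not overlap, the neighbour of a gene that rose at least 4-fold had also done so in 10.8% of cases, against 3.97% of all genes in these pairs, and the neighbour of one that fell in 19.2%, against 11.6%. For divergent pairs the shares were 13.2% against 3.63% for rises (6 pairs with both risen) and 21.6% against 11.8% for falls (32 pairs). For tandem pairs they were 12.2% against 4.25% (12 pairs) and 18.6% against 10.9% (47 pairs). For convergent pairs they were 5.94% against 3.80% (3 pairs) and 18.1% against 12.4% (30 pairs). With so few pairs, the shares for rises cannot be told apart between orientations. These are descriptions with no test, and reads running past a gene's end were not examined. PAI3, a proteinase inhibitor beside SIP18, had 1064 RPKM at 260 min against 45.4 RPKM at 240 min. Of the 503 genes past the filter that matched no entry of the gene table, 64 rose and 142 fell, 12.7% and 28.2%, near the 12.0% and 25.3% of all genes. YLR198C had 2.83 RPKM at 260 min against 240.3 RPKM at 240 min, and its systematic name is next to that of NOP56 (YLR197W, 8.29 against 329 RPKM). YBR116C had 294 RPKM at 260 min against 4.06 RPKM at 240 min, and its name is next to that of TKL2 (YBR117C, 304 against 5.39 RPKM). Since strand was not marked, the reads of each may be those of the named gene and cannot be told apart here.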
